A study of Triticum aestivum with 2 samples.

Results

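Homoeologous group 7 of common wheat comprises chromosomes 7A, 7B and 7D, and all MNase hypersensitive sites (MHSs) on these 3 chromosomes were compared between the homoeologs and between tissues. In MH-seq, nuclei are digested lightly with micrococcal nuclease (MNase) and the shortest fragments are sequenced. Peaks of such reads, the MHSs, mark DNA that the enzyme could reach. The material was wild-type Chinese Spring, with no treatment beside cross-linking. Whole seedlings were labelled as 10 days old, and spikelets as collected at the booting stage. The authors merged 2 biological replicates per tissue before they called peaks with MACS2, so 1 list per tissue was analysed, the spread between replicates is not known and no test was made. Every MHS on the 3 chromosomes was taken, which gave 45550 MHSs of 289446 for the seedling and 43393 of 277119 for the spikelet. These include 1008 seedling MHSs (2.21%) and 196 spikelet MHSs (0.452%) with a q above 0.01, the limit stated for peak calling, and 880 and 157 of them overlapped no MHS of the other tissue. The lists place MHSs on 2 sequence parts per chromosome, on version 1.0 of the IWGSC reference sequence. Part 2 was joined to the end of part 1, and a chromosome was taken to end at the last MHS of either list. Positions in Mb count from the start of the joined chromosome, and single MHSs are given within their part.

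Common wheat is hexaploid and carries a set of chromosomes from each of its A, B and D ancestors, so that most genes of group 7 have a copy on 7A, on 7B and on 7D. Cereal chromosomes are rich in genes and open chromatin towards their ends, whereas the DNA around the centromere is mostly repeats and condensed. By convention, the wheat sequences run from the tip of the short arm to the tip of the long arm. Chromosome 7B is known from cytogenetics and maps to have lost a distal piece of its short arm to the long arm of 4A in an old translocation, so the start of 7B and the end of 4A were also described.

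The homoeologs had similar numbers of MHSs on chromosomes of different length, and 7D was the most densely covered. The seedling list held 15402 MHSs on 7A, 14922 on 7B and 15226 on 7D. The spikelet list held 14653, 13917 and 14823. With lengths of 736.7 Mb for 7A, 750.6 Mb for 7B and 638.5 Mb for 7D, the seedling density was 20.9, 19.9 and 23.8 MHSs per Mb. The spikelet density was 19.9, 18.5 and 23.2 MHSs per Mb. Chromosome 7D thus ranked 2 of 21 chromosomes by density in both lists, 7A ranked 9 in both, and 7B ranked 13 for the seedling and 15 for the spikelet. Relative to 7A, the density of 7D was 1.14 times for the seedling and 1.17 times for the spikelet, and that of 7B was 0.951 and 0.932 times. The order was the same when base pairs covered by MHSs were counted, with 1.15 and 1.18 times for 7D and 0.959 and 0.952 times for 7B. Each homoeolog had more seedling than spikelet MHSs, by 749 on 7A, 1005 on 7B and 403 on 7D. With each list limited to a q of 1e-05 or lower, this order turned. The lists then held 9944 seedling and 11838 spikelet MHSs on 7A, 9681 and 11229 on 7B, and 9959 and 11897 on 7D.

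Along each homoeolog, the density was highest near an end and lowest near the middle. In 10 Mb bins with both lists added, the densest bin of 7A was its first, with 503 seedling and 462 spikelet MHSs. The densest bin of 7D was also its first, with 526 and 520. On 7B the densest bin lay at the other end, from 700 to 710 Mb, with 395 and 365. The lowest bin held 83 seedling and 44 spikelet MHSs on 7A, from 360 to 370 Mb. It held 79 and 59 on 7B and 59 and 38 on 7D, in each case from 340 to 350 Mb. Cut into 20 bins of 5% of its length, 7D had the steepest profile, with 7.05 times as many seedling MHSs in its fullest bin as in its emptiest and 10.2 times as many spikelet MHSs. The same ratio was 4.73 and 6.20 on 7A and 3.66 and 4.35 on 7B.

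**Figure D1:**
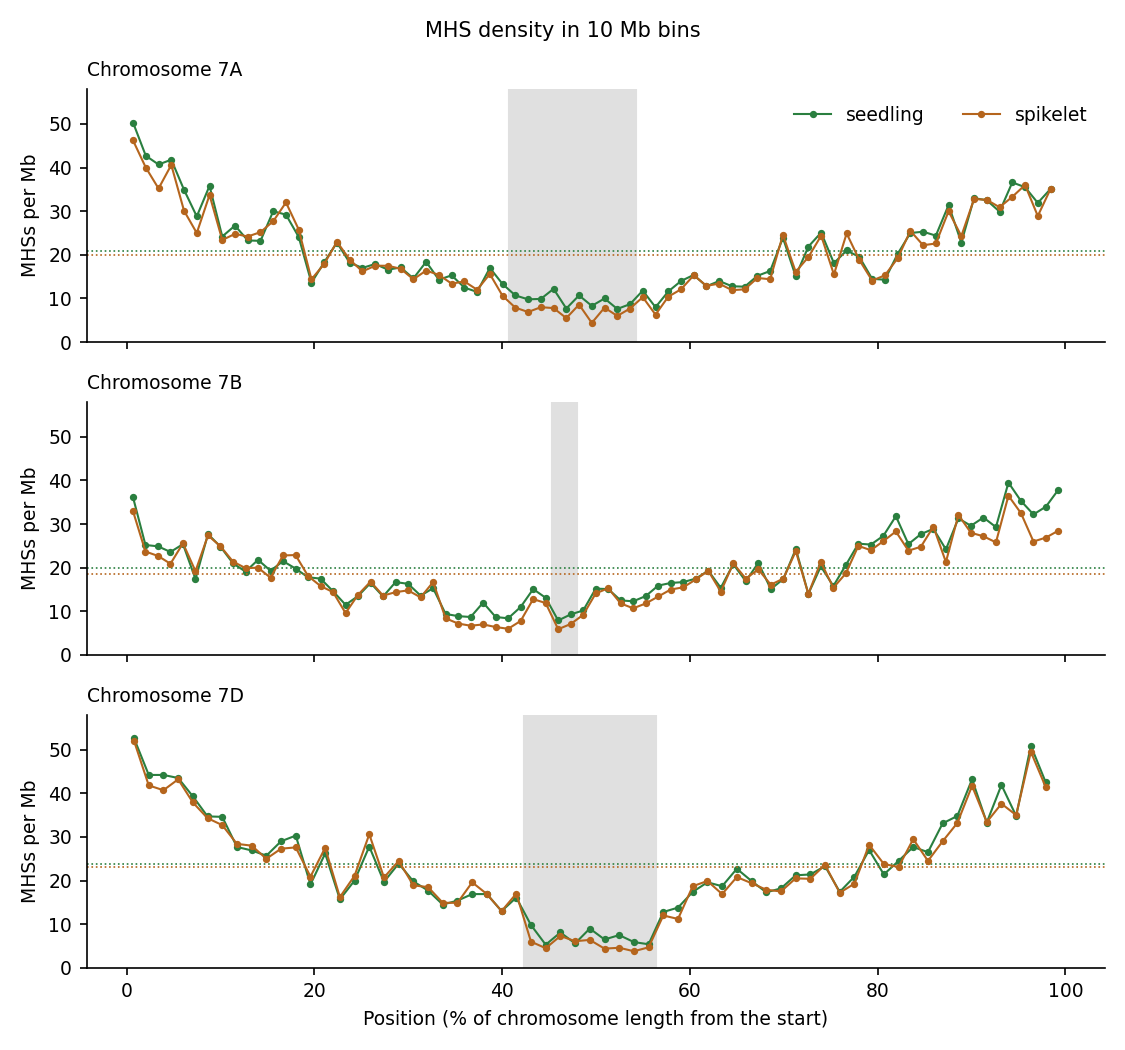
MHS density (MHSs per Mb) in 10 Mb bins of 7A, 7B and 7D against position in percent of chromosome length, for the seedling (green) and the spikelet (brown); dotted lines are the chromosome means and the grey band is the low-density interval around the emptiest bin. All 3 chromosomes fall towards the middle, 7A and 7D start above 45 MHSs per Mb in both lists, and 7B starts lower.

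The profiles of 7A and 7D were more alike than either was to that of 7B. Over the 20 bins, Pearson's r between the shares of MHSs per bin was 0.974 for 7A and 7D for the seedling and 0.972 for the spikelet, with Spearman's rho of 0.980 and 0.967. Between 7A and 7B r was 0.828 and 0.839, with rho of 0.874 and 0.859. Between 7B and 7D it was 0.868 and 0.841, with rho of 0.898 and 0.851. These values are descriptions, since bins of 1 list come from the same libraries and neighbouring bins are not independent. In the first 5% of its length 7A held 10.6% of its seedling MHSs and 7D held 9.73%, whereas 7B held 7.08%. For both pairs with 7B, and in both lists, this was the bin in which the shares lay farthest apart.

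A wide stretch of low density was found on 7A and 7D, and a divided stretch on 7B. The low-density interval was defined as the run of 10 Mb bins around the emptiest bin that held under 50% of the chromosome mean with both lists added, so its low counts are a property of the rule. On 7A it ran from 300 to 400 Mb and held 956 seedling and 707 spikelet MHSs. On 7D it ran from 270 to 360 Mb and held 631 and 478. These intervals took up 13.6% of 7A and 14.1% of 7D. Their borders on 7D were sharp, with 331 MHSs of both lists in the bin before the interval and 158 in its first bin, and with 101 in its last bin and 248 in the next. The border of 7A was less sharp, from 239 to 186 at the start and from 164 to 221 at the end. On 7B the interval ran only from 340 to 360 Mb, with 172 seedling and 130 spikelet MHSs. A longer low stretch of 7B, singled out after its values were seen, ran from 250 to 320 Mb with 671 and 495 MHSs. With 10 Mb bins shifted by 5 Mb, the emptiest bin of 7B lay in this stretch, from 305 to 315 Mb. The interval of 7B thus depended on the bin grid, and the rest of 7B includes the longer stretch. The 20 Mb between the 2 stretches held 282 and 247. In all, 11 bins of 7A, 9 of 7B and 9 of 7D lay under 50% of the mean.

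Within the low-density intervals, the seedling list was the fuller list and about every other seedling MHS had no counterpart in the spikelet. An MHS was called tissue-only when it shared not a base with any MHS of the other tissue, and common when it shared 1 bp or more. The seedling list held more MHSs than the spikelet list in 10 of 10 bins on 7A, 2 of 2 on 7B and 8 of 9 on 7D. Outside the intervals it did so in 42 of 64, 52 of 74 and 31 of 55 bins. The ratio of seedling to spikelet MHSs was 1.34 over the 3 intervals and 1.04 over the rest of the 3 chromosomes. The seedling-only share was 50.3% on 7A, with a 95% Wilson interval of 47.1 to 53.5%, against 38.0% in the rest of 7A. It was 51.7% on 7B, with an interval of 44.3 to 59.1%, against 38.3%, and 52.6% on 7D, with an interval of 48.7 to 56.5%, against 36.8%. Such intervals cover counting error only. In the longer low stretch of 7B the share was 51.4%, with an interval of 47.6 to 55.2%, and in the 20 Mb between the stretches it was 37.6%. The spikelet-only share showed no such step, with 33.2% over the 3 intervals and 33.7% over the rest. It was 30.8% in the interval of 7A, 33.8% in that of 7B and 36.6% in that of 7D.

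The tissue-only MHSs of these intervals, in either list, lay far from MHSs of the other list and on a low local background. The intervals were chosen for few MHSs of both lists, so longer distances follow from the rule. The background is the number of reads expected at the summit, which was solved from the fold and the p of each MHS. Its median was 2.99 reads for seedling-only MHSs in the intervals and 4.22 in the rest, and the lowest value in the seedling list was 2.64. The median distance of seedling-only MHSs to the nearest spikelet MHS was 37.5 kb in the intervals and 5.82 kb in the rest. Only 26.4% of those in the intervals had a q of 1e-05 or lower, against 37.1% of the seedling-only MHSs in the rest. Spikelet-only MHSs went the same way, with a median background of 3.32 reads in the intervals and 5.26 in the rest. Their median distance to the nearest seedling MHS was 22.7 and 3.09 kb, and 48.1 and 66.0% had a q of 1e-05 or lower. When both lists were limited to a q of 1e-05 or lower, a limit added after the data were seen, the seedling-only share was 30.7% in the intervals, with an interval of 27.9 to 33.6%, and 27.7% in the rest. The intervals then held 981 seedling and 991 spikelet MHSs, a ratio of 0.990 against 0.842 in the rest. At this limit the spikelet-only share was 30.1% in the intervals and 38.0% in the rest. Whether the low background has a part in the seedling-only share was not tested.

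**Figure D2:**
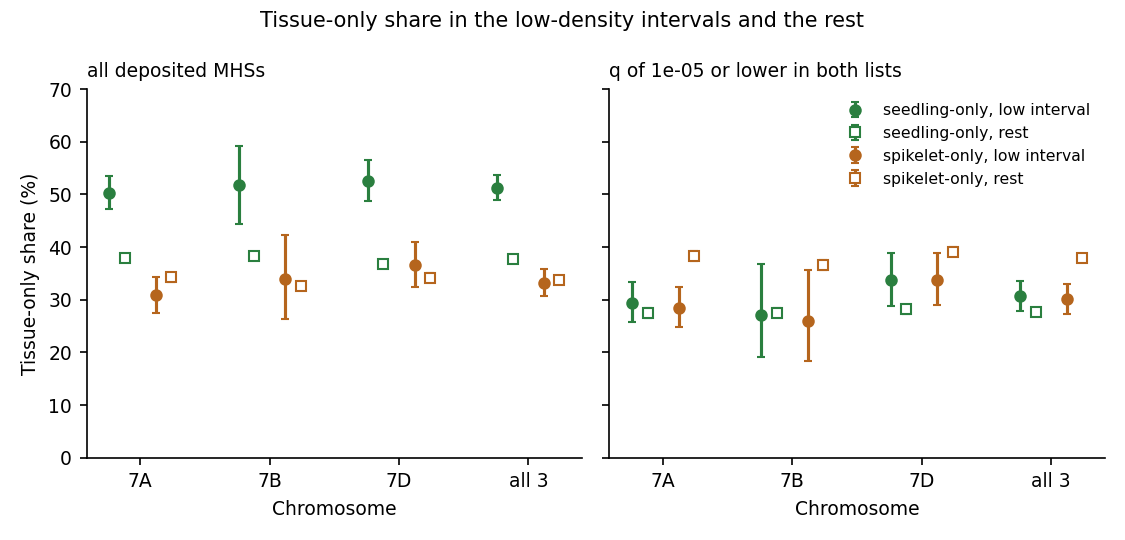
Tissue-only share (percent of the MHSs of that list, with 95% Wilson intervals, which for some points are smaller than the symbol) in the low-density intervals (filled circles) and in the rest of the chromosome (open squares), for the seedling (green) and the spikelet (brown). With all MHSs the seedling-only share of the intervals is 50.3 to 52.6% on the 3 chromosomes and stands above all other points of that panel, and at a q of 1e-05 or lower it is 27.1 to 33.7%.

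The common MHSs of the intervals had larger folds than those elsewhere. The fold divides the summit pileup of reads by the local background, with 1 added to each. Its median over common MHSs was 5.05 in the intervals and 4.60 in the rest for the seedling, and 5.66 and 4.94 for the spikelet. The background of common MHSs was also lower in the intervals, with medians of 5.48 and 5.92 for the seedling and 4.82 and 5.72 for the spikelet. The ratio of the tissues and the seedling-only share of low bins were not particular to group 7. With all bins under 50% of the mean taken on each of the 21 chromosomes, the ratio of seedling to spikelet MHSs was lowest on 6B, at 1.25, and highest on 3D, at 1.44, and was 1.35, 1.35 and 1.32 on the 3 homoeologs. The seedling-only share in such bins ranged from 47.0 to 57.4% over the 21 chromosomes. The spikelet-only share of 7A differed most in the other direction, with 30.4% in its low bins and 34.3% in the rest, a difference of -3.89 points that was the lowest of the 21.

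The ends of 7A and 7D were fuller than those of 7B, and the difference lay mostly at the start. The outermost 10% at either end held 34.7% of the seedling MHSs of 7A, 30.4% of those of 7B and 35.2% of those of 7D, against 33.6% over all chromosomes. In the spikelet these shares were 34.3, 29.3 and 34.9%, against 33.5% over all chromosomes. The first 10% of 7B held 13.1% of its MHSs (seedling) and 13.4% (spikelet), ranks 17 and 18 of 21. The same stretch of 7A held 18.3 and 17.5%, ranks 1 and 4, and that of 7D held 17.7 and 17.5%, rank 3 in both lists. At the other end the shares were closer, with 16.5, 17.3 and 17.5% for the seedling and 16.8, 15.9 and 17.4% for the spikelet.

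In equal lengths of sequence, the first 50 Mb of 7B held fewer MHSs of either tissue than those of its homoeologs. The seedling list had 2104 MHSs there on 7A, 1353 on 7B and 2238 on 7D. The spikelet list had 1921, 1259 and 2156. Relative to 7B, this start held 1.56 times as many seedling and 1.53 times as many spikelet MHSs on 7A, and 1.65 and 1.71 times as many on 7D. The gap was present in common MHSs, of which the seedling list had 1145, 829 and 1273, and in seedling-only MHSs, of which it had 959, 524 and 965. The seedling-only share was 38.7% at the start of 7B, against 45.6% for 7A and 43.1% for 7D. The spikelet-only share was 33.5%, against 39.3 and 40.2%. In the last 50 Mb the seedling list had 1769 MHSs on 7A, 1788 on 7B and 2135 on 7D, and the spikelet list had 1683, 1501 and 2048. Chromosome 7B was the only homoeolog with fewer MHSs in its first than in its last 50 Mb, with a first-to-last ratio of 0.757 for the seedling and 0.839 for the spikelet. This ratio was 1.19 and 1.14 on 7A and 1.05 in both lists on 7D.

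Over the last 50 Mb, 4A was close to 7B in its seedling-to-spikelet ratio and seedling-only share. The piece that 4A carries came from the start of 7B, so this end of 7B is not its counterpart. The last 50 Mb of 4A held 1747 seedling and 1465 spikelet MHSs, and its first 50 Mb held 1277 and 1359. The seedling-to-spikelet ratio of the last 50 Mb was 1.19 both on 4A and on 7B, and 1.05 on 7A and 1.04 on 7D. The seedling-only share there was 51.2% on 4A, with an interval of 48.8 to 53.5%, and 49.4% on 7B, with an interval of 47.1 to 51.8%. For 7A it was 44.0% and for 7D 43.9%. The spikelet-only share set 4A no closer to 7B, with 40.6% on 4A, 38.7% on 7B, 39.9% on 7A and 39.8% on 7D. In the first 50 Mb of 7A and 7D, at the end from which 7B lost the piece, the ratio was 1.10 and 1.04. The seedling-only share of those starts was 45.6 and 43.1%, so in ratio and seedling-only share the end of 4A was not close to them. In spikelet-only share it was close, with 40.6% on 4A against 39.3 and 40.2% in those starts. By definition, common MHSs of the lists overlap each other, so their numbers are close in both. In the last 50 Mb they were 904 seedling and 920 spikelet MHSs on 7B and 853 and 870 on 4A. That a surplus of seedling MHSs falls on seedling-only MHSs follows from this definition. The position of the translocated piece on 4A was not analysed here, and similarity of counts does not show that the sequences are related.

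**Figure D3:**
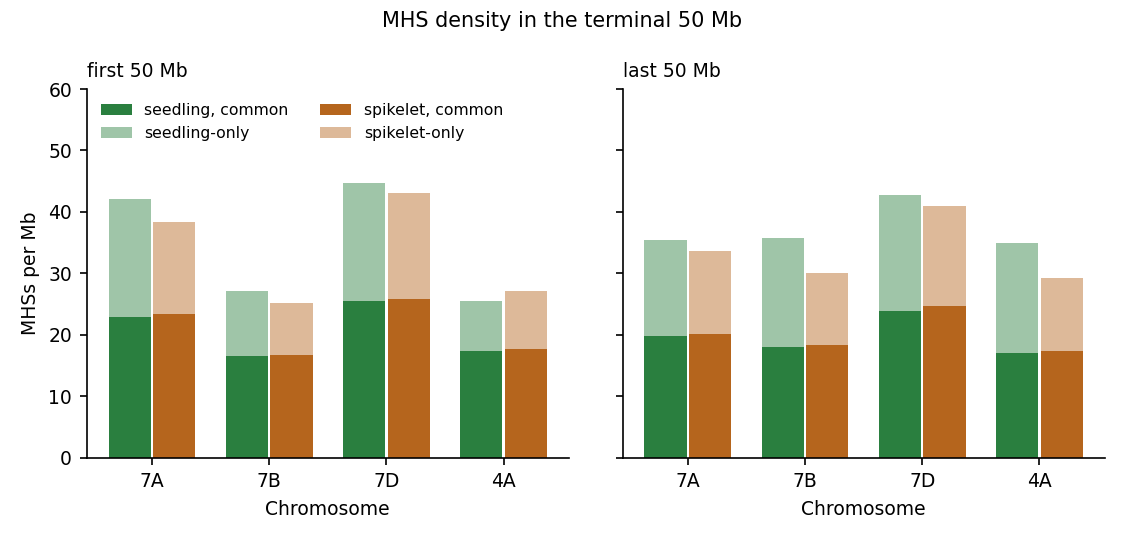
MHSs per Mb in the first and the last 50 Mb of 7A, 7B, 7D and 4A, with seedling bars in green and spikelet bars in brown; dark parts are common MHSs and pale parts tissue-only MHSs. The first 50 Mb of 7B hold 1353 seedling MHSs against 2104 and 2238 on 7A and 7D. In the last 50 Mb the pale seedling part exceeds the pale spikelet part on each chromosome. These parts hold 884 and 581 MHSs on 7B, 894 and 595 on 4A, 778 and 672 on 7A, and 937 and 816 on 7D.

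The surplus of seedling MHSs at the end of 7B was greatest in the last 10 Mb. There the seedling list held 383 MHSs and the spikelet list 290, a ratio of 1.32, and the seedling list was fuller in 9 of 10 steps of 1 Mb. The same stretch held 385 and 368 on 7A, and 446 and 432 on 7D. Of the 383 seedling MHSs of 7B, 238 were seedling-only, a share of 62.1% with an interval of 57.2 to 66.9%. On 7A this share was 48.6%, with an interval of 43.6 to 53.6%, and on 7D it was 46.2%, with an interval of 41.6 to 50.8%. In its last 10 Mb 4A differed from 7B, with 460 seedling and 395 spikelet MHSs, a ratio of 1.16, and a seedling-only share of 50.4%, with an interval of 45.9 to 55.0%. The spikelet-only share of 7B in the last 10 Mb was 49.7%, with an interval of 43.9 to 55.4%, against 45.4% on 7A and 43.3% on 7D. A q of 1e-05 or lower was reached by 177 seedling and 211 spikelet MHSs of 7B there, and by 76 of the 238 seedling-only MHSs. Seedling and spikelet counts at this limit were 208 and 280 on 7A, 244 and 351 on 7D and 270 and 315 on 4A. The ratio was thus 0.839 on 7B, 0.743 on 7A, 0.695 on 7D and 0.857 on 4A. The median background was 4.86 reads for the seedling and 5.07 for the spikelet, below the medians of 5.30 and 5.52 for the whole of 7B.

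At the outermost tip, the spikelet list opened on the first base of all 3 homoeologs. The MHS there was 249 bp wide on 7A with a fold of 17.3, 262 bp on 7B with a fold of 9.43 and 215 bp on 7D with a fold of 8.04. The first seedling MHS started at 117461 on 7A, 32524 on 7B and 153793 on 7D. Of the other 18 chromosomes only 4A and 4B had a spikelet MHS at the first base, and no chromosome had a seedling MHS there. The pileup of these 3 MHSs was 64, 33 and 31 reads on backgrounds of 2.76, 2.60 and 2.98 reads, against a lowest background of 2.60 on the 3 chromosomes in this list. The sequence at the tips was not analysed here.

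Over whole chromosomes, the seedling-only share differed little between the homoeologs. It was 38.7% on 7A (5967 MHSs, with an interval of 38.0 to 39.5%), 38.4% on 7B (5733, 37.6 to 39.2%) and 37.4% on 7D (5697, 36.7 to 38.2%), against 37.0% over all chromosomes. The spikelet-only share was 34.1% on 7A (4993, 33.3 to 34.8%), 32.6% on 7B (4543, 31.9 to 33.4%) and 34.3% on 7D (5082, 33.5 to 35.1%), against 32.6% over all chromosomes. Chromosomes 7D and 7A had the highest spikelet-only shares of the 21, whereas 7B ranked 12. Tissue-only MHSs were weaker and narrower than common MHSs in a like way on each homoeolog. On 7A the median fold was 3.57 for seedling-only and 4.63 for common MHSs of the seedling, and the median width was 276 and 400 bp.

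The seedling-only share was high at both ends and in the middle of 7A and 7D, and low between. In the first 10% it was 44.7% on 7A, 37.7% on 7B and 43.2% on 7D. In the last 10% it was 42.5, 47.8 and 42.3%. Outside the ends and the low-density intervals it was 34.6, 36.0 and 33.3%. Over the 20 bins of 5%, r between 7A and 7D was 0.791 for this share, with a rho of 0.838. It was 0.406 between 7A and 7B, with a rho of 0.495, and 0.179 between 7B and 7D, with a rho of 0.383. The spikelet-only share was higher at both ends of each homoeolog than between, and on 7D also in the middle. In the first 10% it was 38.3% on 7A, 34.0% on 7B and 40.3% on 7D, and in the last 10% it was 39.6, 38.0 and 38.7%. Outside the ends and the low-density intervals it was 31.6, 31.1 and 31.2%. The low-density interval of 7D, at 36.6% with an interval of 32.4 to 41.0%, lay above the latter value, whereas those of 7A and 7B, at 30.8 and 33.8%, had intervals that held the value between on the same chromosome.

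**Figure D4:**
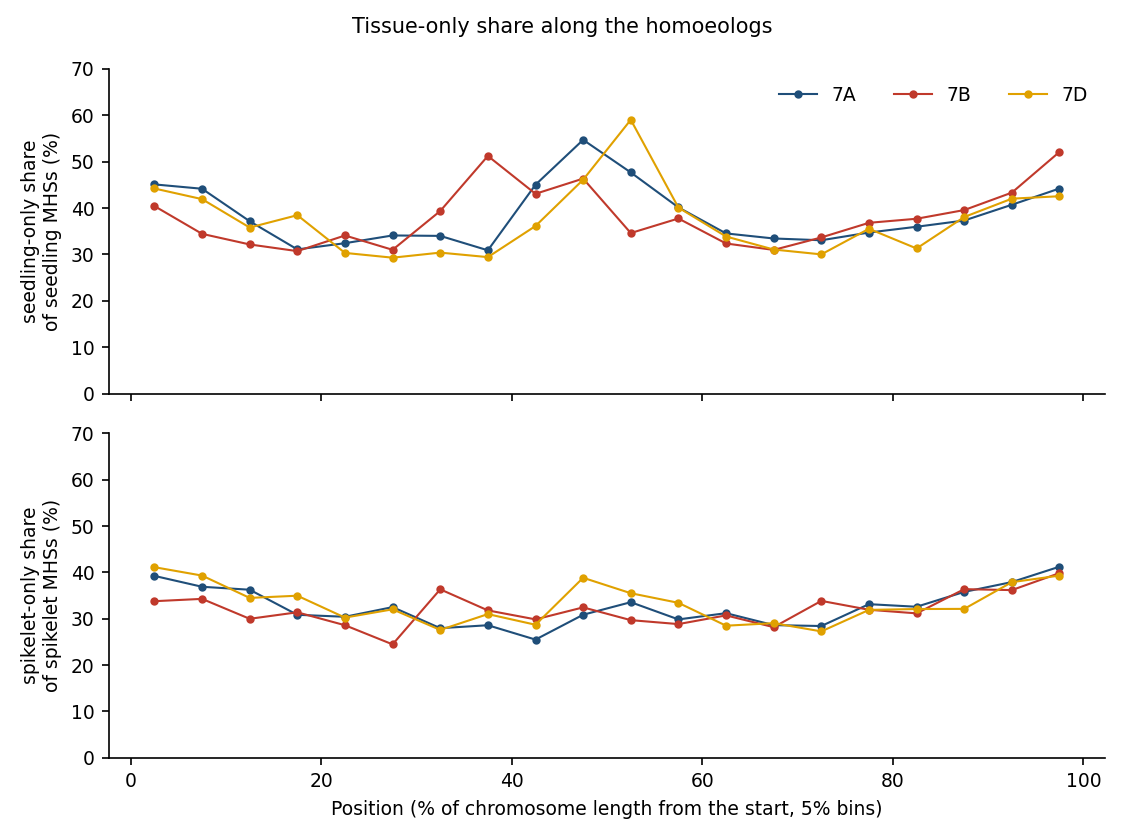
Tissue-only share (percent of the MHSs of that list) in 20 bins of 5% of chromosome length, with the seedling in the upper and the spikelet in the lower panel and 1 line per homoeolog. The seedling-only share rises near the middle to 54.7% on 7A, 51.2% on 7B and 59.0% on 7D, on 7B nearer to the start. The highest bin of 7B is its last, at 52.1%.

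Among 10 Mb bins with at least 50 MHSs of a list, the seedling-only share was highest in the low-density interval on 7A and 7D and at the very end of 7B. It reached 66.3% from 360 to 370 Mb of 7A (55 of 83) and 66.7% from 330 to 340 Mb of 7D (50 of 75). On 7B it reached 62.3% from 740 to 750 Mb (236 of 379), where the spikelet-only share of 7B was also highest, at 49.8% (142 of 285). The highest spikelet-only share of 7A was 46.7%, from 380 to 390 Mb (28 of 60), and that of 7D was 54.1%, from 300 to 310 Mb (33 of 61). The lowest seedling-only shares were 25.8% from 450 to 460 Mb of 7A, 22.2% from 180 to 190 Mb of 7B and 23.6% from 260 to 270 Mb of 7D. That last bin borders the low-density interval of 7D. The lowest spikelet-only shares were 21.7% from 290 to 300 Mb of 7A, which borders its low-density interval, 20.0% from 280 to 290 Mb of 7B, within its longer low stretch, and 23.1% from 410 to 420 Mb of 7D.

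The densest 1 Mb windows lay close to the ends, at both ends of 7A and 7D and only at the far end of 7B. On 7A they started at 34 Mb with 68 seedling and 82 spikelet MHSs, at 706 Mb with 63 and 74, and at 4 Mb with 63 and 68. On 7D they started at 4 Mb with 67 and 95, at 615 Mb with 69 and 78, and at 46 Mb with 68 and 73. In all 6 of these windows the spikelet list was the fuller. On 7B they started at 667 Mb with 63 and 58, at 721 Mb with 54 and 54, and at 709 Mb with 56 and 51. The window of 7D that starts at 4 Mb was the fullest of the 3 chromosomes, with 162 MHSs against a median of 43 per window of 7D. Of its 95 spikelet MHSs 40 were spikelet-only, and of its 67 seedling MHSs 12 were seedling-only. The median window held 34 MHSs on 7A and 36 on 7B. The densest 10% of windows held 23.7% of the MHSs of 7A, 21.1% of those of 7B and 22.5% of those of 7D. Of these windows, 72 of 74 on 7A, 65 of 75 on 7B and 62 of 64 on 7D lay in the outer 20% at either end.

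**Figure D5:**
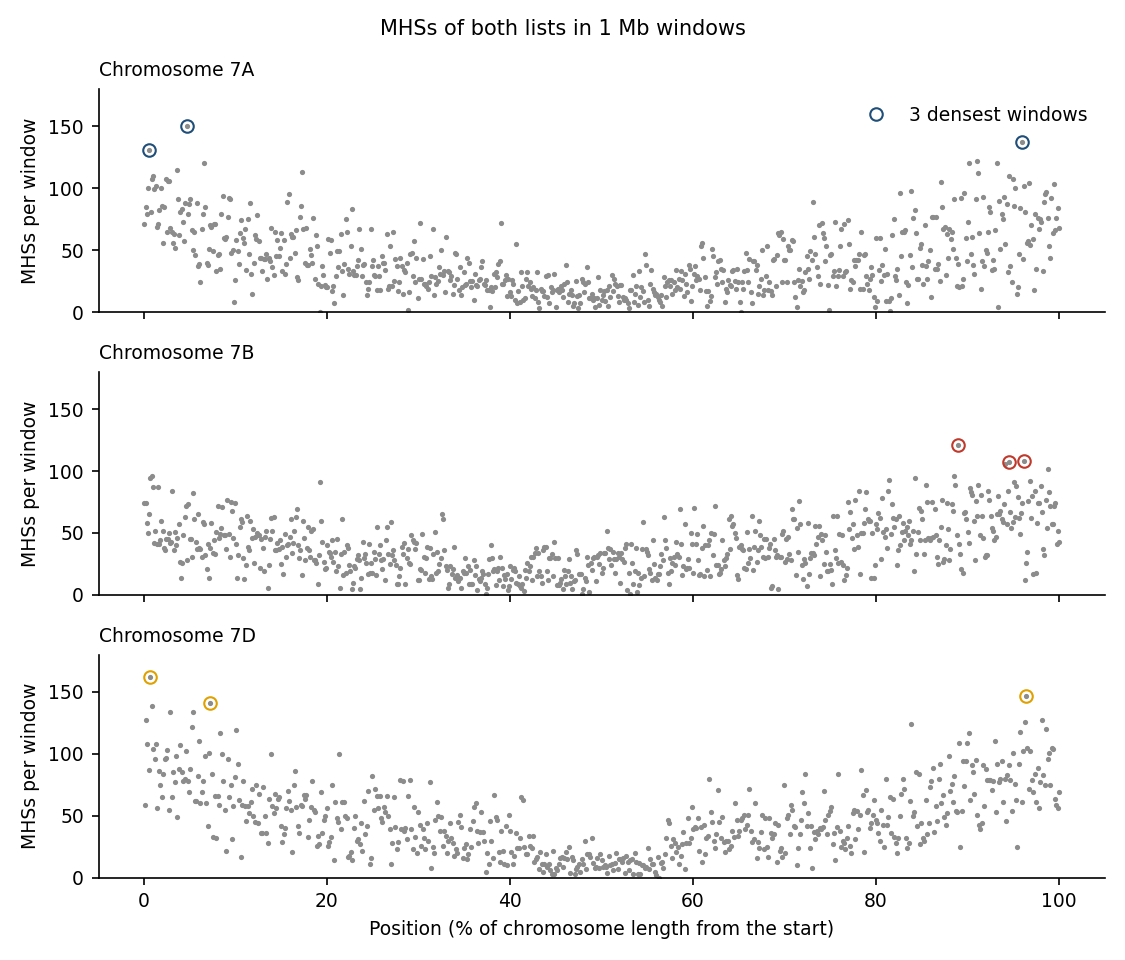
MHSs of both lists per 1 Mb window (grey points) against position in percent of chromosome length, with the 3 densest windows of each homoeolog circled. The circled windows reach 150 MHSs on 7A, 121 on 7B and 162 on 7D, against medians of 34, 36 and 43.

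The longest stretches without any MHS were between 1 and 1.5 Mb long, and on 7A the longest lay outside the low-density interval. It spanned 1472 kb from 140656651 to 142129016 on part 1 of 7A, at 19.1% of the chromosome. On 7B the longest gap spanned 1060 kb from 358880707 to 359940925 on part 1, and on 7D it spanned 1300 kb from 278337668 to 279637533 on part 1, both in the low-density intervals. Gaps of at least 500 kb numbered 67 on 7A, 67 on 7B and 59 on 7D. Of those on 7D, 31 (52.5%) lay in the low-density interval, against 16 (23.9%) on 7A and 6 (8.96%) on 7B. These shares are not on a like basis, since the interval takes up 14.1% of 7D, 13.6% of 7A and only 2.66% of 7B. The longer low stretch of 7B lies outside its interval. Mappability was not analysed here.

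The MHSs of the 3 homoeologs were alike in strength and width. The median fold was 4.05, 4.03 and 4.03 on 7A, 7B and 7D for the seedling and 4.47, 4.51 and 4.44 for the spikelet. The median width was 345, 347 and 345 bp for the seedling and 330, 334 and 331 bp for the spikelet. The median pileup was 25 reads for the seedling and 30 for the spikelet on each homoeolog. The median background was 5.26, 5.30 and 5.42 reads for the seedling and 5.46, 5.52 and 5.64 for the spikelet. A q of 1e-05 or lower was reached by 64.6, 64.9 and 65.4% of the seedling MHSs, against 66.1% over all chromosomes, and by 80.8, 80.7 and 80.3% of the spikelet MHSs, against 81.1%. A width of at least 1000 bp was found for 309, 321 and 292 seedling MHSs, or 2.02% of the 45550, against 2.28% over all chromosomes. In the spikelet 109, 150 and 139 MHSs were that wide, or 0.917%, against 1.20%. In the pairs of 1 seedling and 1 spikelet MHS that overlap only each other, which numbered 8990, 8807 and 9135, the median log2 ratio of the spikelet to the seedling fold was 0.10 on each homoeolog. The spikelet fold was at least 2 times the seedling fold in 182, 163 and 158 pairs, and the reverse held in 55, 67 and 63. Such pairs were not counted over all chromosomes, so whether these counts are particular to group 7 is not known.

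MHSs of very high fold were few, and those absent from the other list were all in the spikelet, much as over all chromosomes. A fold of at least 12 was found for 27 seedling MHSs of 7A, 31 of 7B and 29 of 7D, in all 0.191% of the seedling MHSs, against 0.220% over all chromosomes. All 87 were common. In the spikelet 38, 53 and 47 reached this fold, in all 0.318%, against 0.363% over all chromosomes. Of these 138 MHSs, 11 on 7A, 14 on 7B and 13 on 7D were spikelet-only, or 27.5% with an interval of 20.8 to 35.5%. Over all chromosomes 272 of 1005 such spikelet MHSs (27.1%) and 2 of 636 such seedling MHSs (0.314%) were tissue-only. For such spikelet-only MHSs of group 7 the median distance to the nearest seedling MHS was 28.5 kb, against 31.8 kb over all chromosomes. The low-density intervals held 12 of the 138, or 8.70% with an interval of 5.04 to 14.6%, while they held 3.03% of all spikelet MHSs of the 3 chromosomes. Of the 87 in the seedling they held 6, or 6.90% with an interval of 3.20 to 14.2%, while they held 3.86% of all seedling MHSs. The 12 in the spikelet were 6 of 38 on 7A, 1 of 53 on 7B and 5 of 47 on 7D. The fold divides by the local background, which was lower in the intervals than in the rest. Its medians were 4.56 and 5.58 reads for the spikelet and 4.56 and 5.36 for the seedling. The part of this background in these shares was not tested.

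The strongest MHSs differed in how far they were shared. On 7D the largest seedling fold was 26.1, from 336506955 to 336507295 on part 1, inside the low-density interval, with a pileup of 94 reads on a background of 2.64. The spikelet MHS over it had a higher pileup of 168 reads, a background of 18.0 reads and so a lower fold of 8.89. On 7A the largest spikelet fold was 26.3, from 371668017 to 371668409 on part 1, also inside the low-density interval, with a pileup of 174 reads. The seedling MHS over it had a fold of 4.12 and a pileup of 14 reads. On 7B the largest spikelet fold was 26.0, from 392268537 to 392268915 on part 1. This MHS was spikelet-only, with a pileup of 128 reads and the nearest seedling MHS 7.13 kb away. The strongest spikelet MHS of 7D, from 31233181 to 31233672 on part 1, was also spikelet-only, with a fold of 22.0 and the nearest seedling MHS 15.0 kb away. The strongest seedling MHSs of 7A and 7B were shared at more similar strength. On 7B a fold of 23.6 from 166474207 to 166474573 on part 2 stood beside 20.8 in the spikelet. On 7A a fold of 20.9 from 201366760 to 201367097 on part 1 stood beside 13.4. There the spikelet pileup was the higher, at 129 against 83 reads, on a background of 8.72 against 3.02 reads.

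Tissue-only MHSs also occurred in unbroken runs, with no MHS of the other list between them. The longest seedling-only run held 14 MHSs on 7A, 14 on 7B and 13 on 7D. On 7B it lay at the tip of the chromosome, from 294688736 to 295057081 on part 2, at 99.7% of the length. On 7A the longest seedling-only run, from 59420208 to 59816365 on part 1, and the longest spikelet-only run, from 60096865 to 60262518 with 13 MHSs, were only 280 kb apart. The longest spikelet-only run of 7B, also of 13 MHSs, lay from 262896054 to 263068459 on part 2. The seedling-only runs had a local background below the list median, at 0.788, 0.774 and 0.745 times on 7A, 7B and 7D. The background of the spikelet-only runs was above it, at 2.36 times the list median on 7A, 2.18 times on 7B and 1.85 times in the run of 27 MHSs on 7D. The part of this background in the runs was not tested. Runs of at least 5 MHSs numbered 73, 63 and 58 for the seedling and 37, 30 and 31 for the spikelet on 7A, 7B and 7D.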

How the data were processed

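MH-seq peak lists of 2 tissues were used. The authors aligned trimmed reads to the IWGSC reference (version 1.0) using Bowtie2, discarded duplicated and poorly mapped reads, pooled the replicates and called peaks using MACS2 (version 2.0 by the submitters' processing notes). Per the deposited lists, the score is the whole part of 10 times the −log10 q-value. The fold is the authors' ratio of summit pileup plus 1 to local background plus 1. For the summit, the authors also deposited the p-value and the q-value as −log10.

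Peaks were placed by their midpoints. Pileup and background were solved from fold and p, assuming a Poisson tail. Totals of reads are not given in the lists, so depth is shown by the pileup. For shares, 95% Wilson intervals are given. With 1 list per tissue, no test was run. The members, lists and regions were chosen with earlier results of these data known. The regions named were, per homoeolog, the MHS of largest fold in each list, the lowest and highest 10 Mb bin, the 3 densest 1 Mb windows, the longest gap, the longest tissue-only run in each list and the 10 Mb bins of highest and lowest tissue-only share. The low stretch of 7B from 250 to 320 Mb, the last 10 Mb and the first MHSs were added after their values were seen. Alternatives were a q of 1e-05, a reciprocal overlap of 50%, other ends, other bins and covered base pairs. Gene annotation, sequence and mappability were not used here. The code for overlaps, distances, runs and backgrounds was tested on simulated peaks. Tools were Python 3.11.15 with scipy 1.17.1, pandas 2.3.3, matplotlib 3.10.9 and numpy 2.4.6.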

Additional observations from a re-analysis of the deposited data

How the results depend on the processing

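Of 63 values recomputed under an alternative, 25 stayed within their interval or within 1.5 times, 37 moved and 1 reversed. At a q of 1e-05 or lower the seedling list kept 9944 MHSs on 7A, 9681 on 7B and 9959 on 7D. The spikelet list kept 11838, 11229 and 11897, so it was then the fuller list on each homoeolog. The tissue-only share with both lists so limited was 27.6, 27.6 and 28.4% for the seedling and 37.9, 36.5 and 39.0% for the spikelet, so the order of the tissues turned. With a reciprocal overlap of 50% it was 49.3, 48.7 and 48.3% for the seedling and 46.7, 45.0 and 46.9% for the spikelet. The excess of MHSs in the ends over even placement, 1.74, 1.52 and 1.76 times for the seedling and 1.71, 1.47 and 1.75 times for the spikelet, was lowest on 7B in every version. With the outermost 5% it was 1.92, 1.59 and 1.91 times in the seedling, and 1.90 on 7A and 1.89 on 7D in the spikelet. With the outermost 20% it was 1.45, 1.36 and 1.48 times, and 1.47, 1.36 and 1.47 times. At a q of 1e-05 or lower it was 1.62, 1.41 and 1.66 times in the seedling and 1.67 times on 7A in the spikelet. The emptiest bin then held 6.6 MHSs per Mb on 7A, 8.0 on 7B and 5.3 on 7D, in place of 12.7, 13.8 and 9.7. With bins shifted by 5 Mb the emptiest bin lay from 385 to 395 Mb on 7A, 305 to 315 Mb on 7B and 275 to 285 Mb on 7D, and with a shifted grid the densest window of 7A started at 670.5 Mb. In the low-density intervals, under alternatives added after the data were seen, the seedling-only share was 30.7% at a q of 1e-05 or lower and 60.0% with reciprocal overlap, and the spikelet-only share 30.1 and 46.5%. The seedling-to-spikelet ratio there reversed to 0.990 at a q of 1e-05 or lower. The cause was not tested. No paired analysis was possible because replicates were merged into 1 list per tissue. The number of MHSs limits the shares of the low-density interval of 7B, which by the rule spans 20 Mb and holds 172 and 130 MHSs.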
